A study of Mus musculus with 2 samples.

Results

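The fatty acid elongases and desaturases of mouse liver were described on 2 arrays: the genes Elovl1, Elovl2, Elovl3, Elovl5, Elovl6, Fads1, Fads2, Scd1 and Scd2. They were found by gene symbol, as every probe set annotated with 1 of these symbols alone. This gave 17 probe sets for 9 genes, out of 20380 probe sets with 1 symbol and 12393 genes in all. The family was singled out because Elovl3 and Elovl6 had already been seen to differ in opposite directions on these same arrays, so those ratios are a description and not evidence of an effect. The control array carried pooled liver RNA of male mice, apolipoprotein E-deficient, with the C57BL/6J strain background and aged 2 months, given a semipurified Western diet over 11 weeks. The oleanolic acid array carried pooled liver RNA of mice of the same genotype, background, sex and age, on that diet with 0.01% oleanolic acid, a plant triterpenoid, for 11 weeks, which provided 10 mg per kg per day. The apolipoprotein E deficiency was thus shared by both groups, and the growth protocol of both samples names oleanolic acid, so each array was assigned by its title. The sources used here do not give the number of mice per pool or the time of day at which livers were taken.

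Each diet has n = 1 pooled array, so no test was run, and a difference holds for this pair of arrays and cannot be carried over to the diets. Values are MAS5 signals, linear intensities on a scale shared by both arrays. A log2 ratio is oleanolic acid over control, so 1 means a doubling. A probe set was called measured when its signal reached the median of its array (61.5 for control, 59.3 for oleanolic acid) on at least 1 array, and the ratio of a gene averages its measured probe sets. The error beside a ratio is the SD between probe sets of that gene or, for a gene with 1 measured probe set, the pooled SD of genes of similar brightness. Such an error reflects probes and hybridization, and differences between mice do not enter it. From few probe sets the SD is itself imprecise, so a small one is no sign of a precise ratio. All 9 genes were measured, by 15 of the 17 probe sets. The arrays were alike in overall level: over 7137 measured genes the median log2 ratio was 0.0012, and the central 95% lay between -0.56 and 0.51. Hepatocyte identity showed on both arrays, with Alb (albumin) at signals of 8540 and 8950 and 7 of 7 hepatocyte markers with a named probe set measured.

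Elongases add carbon units, taken from malonyl-CoA, to fatty acyl chains in the endoplasmic reticulum, and each member of the family prefers chains of certain length and saturation. Desaturases introduce double bonds with electrons passed on by cytochrome b5. In liver, Elovl6 and Scd1 turn newly made palmitate into oleate, Fads1, Fads2, Elovl5 and Elovl2 build the polyunsaturated chains from dietary precursors, and Elovl1 and Elovl3 make very long saturated and monounsaturated chains. Several of these genes are known targets of the lipogenic factor SREBP-1c, and hepatic Elovl3 is known for a daily rhythm and a higher level in male than in female mice.

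The promoters of the members with the lowest and the highest ratio among those that matched the promoter table used here are shown first, because they give the sequence context of an elongase that was lower and one that was slightly higher with oleanolic acid. Sequences are from RefSeq on GRCm38.p6, and 5 of the 9 members matched, with 7 start sites. Elovl3, Fads1, Scd1 and Scd2 did not. The 250 bases upstream of the start are printed 5′ to 3′ on the gene's strand, at chr3:129532136-129532385 (plus strand) for Elovl6 and chr9:77917115-77917364 (plus strand) for Elovl5. Capitals mark matches, on either strand, to the E-box CACGTG, the D-box TTATGNAA, the nuclear receptor half-site AGGTCA, the sterol response element TCACNCCAC and the CCAAT box CCAAT. No matches overlapped each other in these windows.
Elovl6: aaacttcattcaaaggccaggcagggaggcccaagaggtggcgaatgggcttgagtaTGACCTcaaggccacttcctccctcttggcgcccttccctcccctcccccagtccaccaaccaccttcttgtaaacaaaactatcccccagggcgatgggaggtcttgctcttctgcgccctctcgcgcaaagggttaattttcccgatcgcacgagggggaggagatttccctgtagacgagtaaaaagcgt
Elovl5: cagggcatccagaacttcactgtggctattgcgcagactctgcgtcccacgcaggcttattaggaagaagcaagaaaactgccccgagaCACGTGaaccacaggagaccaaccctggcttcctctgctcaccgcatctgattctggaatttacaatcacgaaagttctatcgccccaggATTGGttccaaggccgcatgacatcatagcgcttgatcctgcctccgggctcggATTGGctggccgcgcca
The Elovl6 window held 1 half-site match and none of the other motifs. The Elovl5 window held 1 E-box match, which starts 161 bases before the start site, and 2 CCAAT matches. Of 32851 upstream windows of the same length in the table, 14.0% held a half-site match, 6.02% an E-box match, 33.8% a CCAAT match, 3.07% a D-box match and 1.05% a sterol response element match. A match is a description of letters and not of binding, and binding was not measured here.

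Among the 9 genes, Elovl3 was the one higher and Elovl6 the one lower by more than 0.5 on the log2 scale, and the other 7 lay within 0.5 of 0. Over all measured genes 2.63% were above 0.5 and 3.24% below -0.5. Past a log2 ratio of 1 the same genes stood, 1 above and 1 below, where all measured genes gave 0.392% above 1 and 0.631% below -1. Elovl3 alone passed 1.5, the size named in the submitters' design text. Of all measured genes 0.112% were above 1.5 and 0.28% below -1.5. These shares are given as background, since the family was chosen on this contrast. The median over the members was 0.06, with 5 genes above 0 and 4 below, against 50.2% above 0 and 49.7% below 0 over all measured genes.

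**Figure D1:**
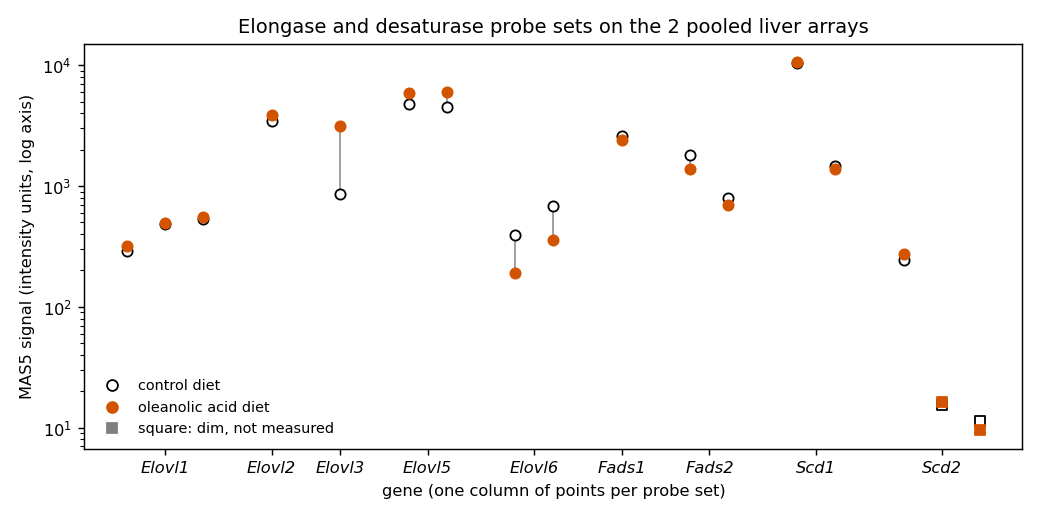
MAS5 signal (log axis) of each elongase and desaturase probe set on the control pool (open points) and the oleanolic acid pool (filled points), 1 column of points per probe set and n = 1 pooled array per diet. The Elovl3 points lie apart at 859 and 3126, both Elovl6 columns have the oleanolic acid point below the control point, and squares mark the 2 dim Scd2 probe sets that were not counted as measured.

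Elovl3 elongates saturated and monounsaturated chains to very long ones, and outside the liver it is known from brown fat and from the sebaceous glands of the skin. Its only probe set, 1420722_at, gave a control signal of 859 and an oleanolic acid signal of 3126. The signal was thus 3.64-fold higher with oleanolic acid, a log2 ratio of 1.86 (pooled probe set SD 0.13). Its ratio was the third highest of 7137 measured genes. Among the 1785 genes in the brightest of 4 bands of mean signal, it had the highest ratio of all. Because 1 probe set reports Elovl3, no second set of probes stands beside this value.

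Elovl6 elongates palmitate to stearate, the substrate of Scd1. Its probe set 1417403_at gave 396.5 for control and 189 for oleanolic acid, and 1417404_at had 686 and 354. The oleanolic acid signal was the lower one in both probe sets, with log2 ratios of -1.07 and -0.95. The gene's log2 ratio was -1.01 ± 0.08 (SD of 2 probe sets), 2.01-fold lower with oleanolic acid. Its ratio was the 43rd lowest of the 7137 measured genes, and in its own band of 1784 genes Elovl6 had the third lowest.

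The distance between the log2 ratios of Elovl3 and Elovl6 was 2.87, with an error of 0.15 from the SDs of both genes. This is a 7.33-fold difference between the fold changes of the genes. It describes the pair for which the family was chosen and was not tested.

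**Figure D2:**
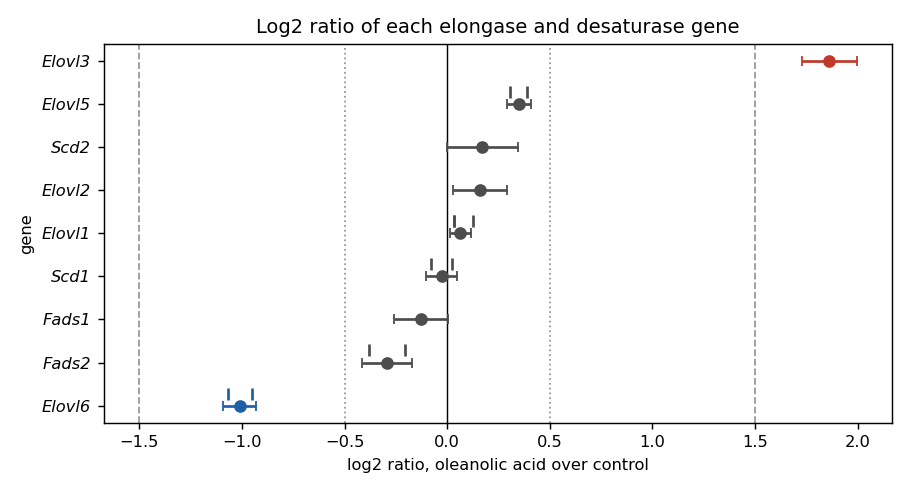
Log2 ratio (oleanolic acid over control) of each gene, with bars for the SD between its probe sets or, with 1 measured probe set, the pooled SD of its signal band. Short ticks above a point are its single probe sets, dotted lines mark 0.5 and -0.5 and dashed lines 1.5 and -1.5. Elovl3 at 1.86 and Elovl6 at -1.01 lie outside the dotted lines and the other 7 genes inside.

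The polyunsaturated route had small differences. Fads2 lay below 0 and Elovl5 above 0 by more than their errors, while Fads1 and Elovl2 lay nearer to 0. Fads2 carries out the first desaturation step of the route from the essential fatty acids. Its signals were 1789 and 1376 (control, then oleanolic acid) for 1419031_at and 799 and 692 for 1449325_at. Both probe sets were lower in the oleanolic acid pool, and the gene's log2 ratio was -0.29 ± 0.12 (SD of 2 probe sets). Elovl5, which elongates the products of Fads2, had signals of 4790 and 5928 for 1415840_at and of 4536 and 5946 for 1437211_x_at. Both of its probe sets were higher in the oleanolic acid pool, at a log2 ratio of 0.35 ± 0.06 (SD of 2 probe sets). Within the 1785 genes of the brightest band, Elovl5 ranked 69th from the top and Fads2 72nd from the bottom. Each lay toward one end of the genes this bright, Elovl5 toward the upper and Fads2 toward the lower end, and in each both probe sets shared a sign.

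Fads1, the desaturase that acts later in the polyunsaturated route, went from a control signal of 2610 to 2389. Its log2 ratio of -0.13 was about the size of its error (pooled probe set SD 0.13). Elovl2, which elongates the longest polyunsaturated chains toward docosahexaenoic acid, had signals of 3472 and 3875. Its log2 ratio was 0.16 (pooled probe set SD 0.13). The distance from 0 was within the error for Fads1 and just past it for Elovl2.

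The stearoyl-CoA desaturases, which make oleate from stearate, differed little between the arrays. Scd1, the main form in liver, had signals of 10359 and 10546 for 1415964_at and of 1455 and 1375 for 1415965_at. The probe sets disagreed in sign, and the gene's log2 ratio was -0.03 ± 0.08 (SD of 2 probe sets), so no direction is given. The brightest of 3 Scd2 probe sets, 1415822_at, read 244.8 for control and 275.8 for oleanolic acid, a log2 ratio of 0.17 (pooled probe set SD 0.17), a difference no larger than its error. The other Scd2 probe sets were dim, with signals of 15.3 and 16.2 for 1415823_at and of 11.3 and 9.5 for 1415824_at, and gave no ratio. Scd1, Scd2, Scd3 and Scd4 neighbour each other in the RefSeq annotation and have similar coding sequences, so a share of cross-hybridization between them was not tested. Scd3, a form known from skin, was dim on both arrays, with signals of 22.9 and 24.9 for its brighter probe set.

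Elovl1, a widely expressed elongase of saturated very long chains, was close to 0. Its 3 probe sets had signals of 291.5 and 317.7, of 485.5 and 497.5, and of 538 and 551. Each was slightly higher in the oleanolic acid pool, and the gene's log2 ratio was 0.06 ± 0.05 (SD of 3 probe sets). The gap between probe sets of 1 gene, over the 5 genes with more than 1 measured, ran from 0.08 for Elovl5 to 0.17 for Fads2.

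**Figure D3:**
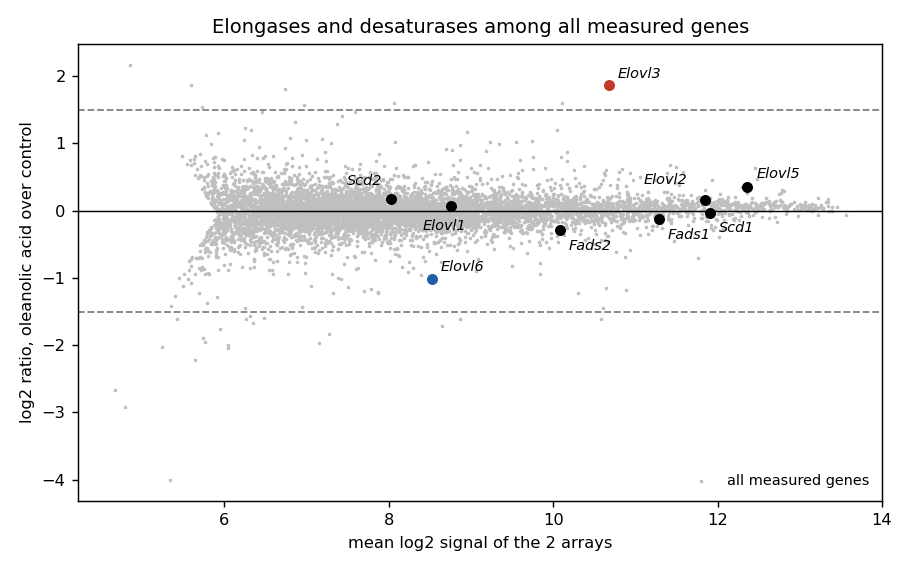
Log2 ratio (oleanolic acid over control) against the mean log2 signal of the 2 arrays for 7137 measured genes (grey), with the 9 elongases and desaturases labelled and dashed lines at 1.5 and -1.5. Elovl3 at 1.86 has the highest ratio of the brightest band, Elovl6 lies at -1.01 among genes mostly within 0.5 of 0, and the other members lie within the grey cloud.

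Other members of the elongase and desaturase families that had a named probe set were dim, apart from Degs1. Elovl4 and Elovl7, elongases of brain, retina and other tissues, had no signal above 15.2 on either array, and Fads3, which lies beside Fads2 and Fads1 in the RefSeq annotation, had none above 20.1. Degs1, the desaturase that makes ceramide from dihydroceramide, was bright and had a log2 ratio of 0.16 ± 0.0089 (SD of 2 probe sets), with signals of 1160 and 1295. The pooled SD of genes this bright was 0.13. Detection above background was not analysed for these dim probe sets.

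Elongation is completed by a reductase, a dehydratase and a second reductase, and none of these partner genes was past 0.5 in either direction. All 6 listed genes were measured, 4 above 0 and 2 below, with a median of 0.05. As background for this and the next list, 94.1% of all measured genes lay within 0.5 of 0. Hsd17b12, the ketoacyl reductase, was highest at 0.19 ± 0.07 (SD of 2 probe sets) with signals of 2130 and 2425. Tecr, the enoyl reductase that ends the cycle, was at 0.12 ± 0.03 (SD of 2 probe sets), and Hacd4, one of the dehydratases, was lowest at -0.16 (pooled probe set SD 0.27). The genes that supply electrons to the desaturases were as close to 0. All 5 that were measured lay above 0 and within 0.5 of it, with a median of 0.08. Of all measured genes 50.2% lay above 0, and of those in the brightest band 58.2%. Cyb5r1 was highest at 0.20 (pooled probe set SD 0.25). Cyb5b alone lay past its error, at 0.09 ± 0.08 (SD of 3 probe sets).

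The genes listed for the supply of malonyl-CoA and palmitate include Mlycd, whose product, malonyl-CoA decarboxylase, breaks malonyl-CoA down. Among them, Thrsp differed by more than 0.5 and the other 7 measured genes lay within 0.5 of 0. Over all measured genes 94.1% lay within 0.5. Ratios were below 0 for 7 of the 8 genes, against 49.7% of all measured genes. Their median was -0.20, against 0.0012 over all measured genes. The 1 gene above 0 was Mlycd, at 0.18 (pooled probe set SD 0.17). Thrsp, a nuclear protein induced with lipogenesis, was at -1.61 ± 0.27 (SD of 2 probe sets). Acly, which makes cytosolic acetyl-CoA from citrate, read 1066 for control and 774 for oleanolic acid, a log2 ratio of -0.46 ± 0.30 (SD of 3 probe sets). Mid1ip1, a relative of Thrsp that activates acetyl-CoA carboxylase, was at -0.27, and Fasn, which makes palmitate, read 1278 for control and 1104 for oleanolic acid, a log2 ratio of -0.21 (each with a pooled probe set SD of 0.13). The ratios of Acacb (-0.03), Acss2 (-0.04) and Me1 (-0.19) were within their errors of 0.27, 0.11 and 0.29.

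Genes that activate and bind fatty acids were within 0.5 of 0 in 6 of 6 measured cases, with a median of 0.07. Of all measured genes 94.1% lay within 0.5 of 0. Acsl4, an acyl-CoA synthetase that prefers arachidonate, was the lowest at -0.48 ± 0.22 (SD of 3 probe sets), with signals of 202 and 144. The bile acid and fatty acid CoA ligase gene Slc27a5 was at 0.16 and the acyl-CoA binding protein gene Dbi at 0.13 ± 0.05 (SD of 4 probe sets), or 0.08 with intensity-dependent centring.

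Among the measured regulators of the family, Insig2 alone lay further than 0.5 from 0. Of 10 measured lipogenic regulators, 9 lay within 0.5 of 0, as did 94.1% of all measured genes, and the median was 0.04. Insig2, which holds SREBP precursors in the endoplasmic reticulum, read 695 for control and 1602 for oleanolic acid, a log2 ratio of 1.21 ± 0.14 (SD of 3 probe sets). Srebf1, which encodes SREBP-1, read 2439 for control and 2071 for oleanolic acid, a log2 ratio of -0.24 (pooled probe set SD 0.13). Ppara, the receptor for fatty acids that drives their oxidation, was at -0.34 (pooled probe set SD 0.13) and Pparg at 0.46 (pooled probe set SD 0.27). Mlxipl, which encodes the carbohydrate-responsive factor ChREBP, was at -0.09 and Nr1h3, which encodes LXR-alpha, at 0.09. Srebf2, which encodes the regulator of cholesterol synthesis, lay close to the limit for a measured gene, at 66.9 and 55.5 signal units. It passed the filter through the control array alone, which favours a ratio below 0. Its log2 ratio was -0.27 (pooled probe set SD 0.27).

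Clock genes are given because hepatic Elovl3 follows a daily rhythm. Of 17 measured clock genes, 4 were above 0.5, 7 below -0.5 and 6 between, with a median of -0.44. Over all measured genes 2.63% were above 0.5 and 3.24% below -0.5. Like Arntl, Nr1d1 (60.4 and 107.4) and Cry1 (50.7 and 67.3) passed the filter through the oleanolic acid array alone, which favours ratios above 0. Where both arrays had to reach their median, the median of the clock genes was -0.53. Arntl, which encodes the activator BMAL1, read 25.3 for control and 92.5 for oleanolic acid, a log2 ratio of 1.87 (pooled probe set SD 0.27), and passed the filter through the oleanolic acid array alone. Per3, a repressor of the clock, read 293.5 for control and 81.9 for oleanolic acid, a log2 ratio of -1.84 (pooled probe set SD 0.25). Usp2, a rhythmic deubiquitinase, was at -1.71 ± 0.24 (SD of 2 probe sets). Arntl depended on the floor for low signals (0.59 with the floor at the array median), and Per3 on its dim probe sets (-0.82 when they were included). The part of sampling time in the Elovl3 and Elovl6 values was not tested.

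Genes known to be higher in male liver, as Elovl3 is, are given beside it. Of 13 measured, 13 lay within 0.5 of 0, as did 94.1% of all measured genes. They had a median of -0.18, with 4 above 0 and 9 below, where all measured genes gave 50.2% above 0 and 49.7% below. The largest values were those of Ugt2b38 (-0.38), Susd4 (-0.36) and Mup5 (-0.35), each lower with oleanolic acid by no more than 0.38. Among 5 measured genes known to be higher in female liver, 1 was above 0.5 and 1 below -0.5. The shares over all measured genes were 2.63% above 0.5 and 3.24% below -0.5. Cyp2b9, a cytochrome P450 with close relatives, read 57.0 for control and 199.8 for oleanolic acid, a log2 ratio of 1.81 (pooled probe set SD 0.27), and also passed through the oleanolic acid array alone. Fmo2 was at -0.69 ± 0.33 (SD of 2 probe sets). Abcd2, a peroxisomal transporter of very long-chain acyl-CoA, was at 0.48 (pooled probe set SD 0.27).

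**Figure D4:**
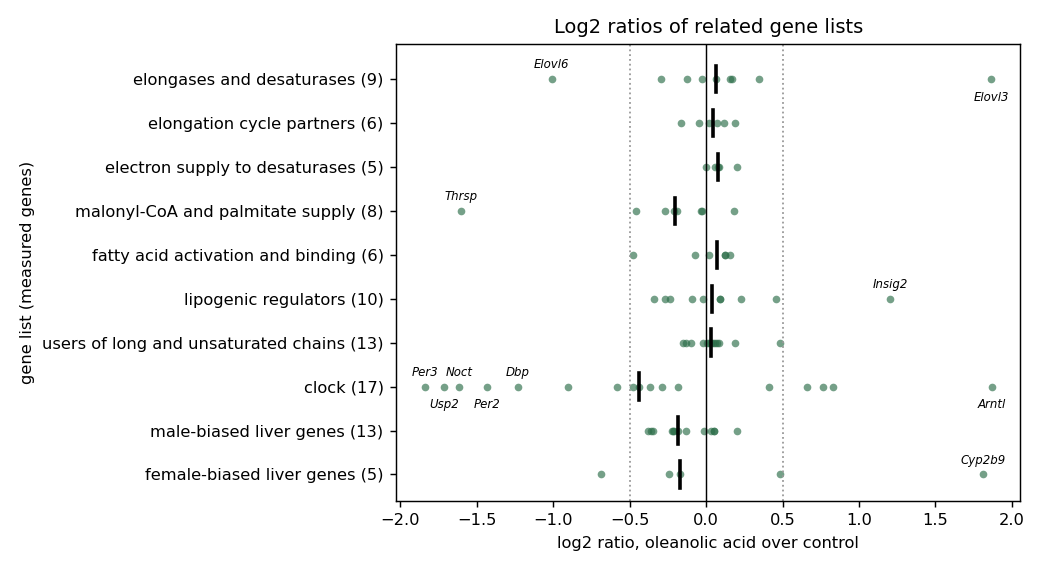
Log2 ratio (oleanolic acid over control) of each measured gene in 10 groups, with the number of genes in parentheses, the group median as a black bar and dotted lines at 0.5 and -0.5. Elongation partners, electron suppliers, activation and binding genes and male-biased genes lie between the dotted lines, while Elovl3, Elovl6, Thrsp, Insig2, Cyp2b9 and several clock genes lie past 1 or -1.

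Among 1965 measured genes with signals of at least 500 on both arrays, those with log2 ratios nearest to that of Elovl3 were Clpx (1.60), Insig2 (1.21) and Angptl8 (1.03), at distances of 0.27, 0.66 and 0.83. Nearest to Elovl6 among 1966 such genes were Gpcpd1 (-0.94), Lpin1 (-1.15 ± 0.03, SD of 2 probe sets) and Alas1 (-1.18 ± 0.26, SD of 2 probe sets), at distances of 0.07, 0.14 and 0.17. Likeness here is the absolute difference of log2 ratios, which over 2 arrays is a single number per gene.

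Markers of other tissues were read on the same arrays, and in pooled bulk RNA fewer cells of a type and less RNA per cell cannot be told apart. Fat is named first, since brown fat is a known site of Elovl3. Of 8 fat markers with a named probe set, 4 were measured, and the summed signal of the list was 1026 for control and 501 for oleanolic acid. The brown fat genes Ucp1 and Cox8b had signals of 76.4 and 64.0 in the control pool and of 1.0 and 9.5, at or under the floor, in the oleanolic acid pool. They passed the filter through the control array alone, so their ratios had to lie below 0. Of the fat markers that passed on both arrays, Fabp4, a fatty acid binding protein of adipocytes, was at -0.87 ± 0.05 (SD of 2 probe sets) and Cox7a1, a respiratory chain subunit, at -0.14 (pooled probe set SD 0.27). Cidea had 53.9 and 15 and the adipocyte gene Adipoq 47.7 and 9.2, dim on both arrays.

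Exocrine pancreas markers summed to 2258 and 1014, and 8 of the 9 measured passed through the control array alone. The remaining one, Cela1, was at -0.15 (pooled probe set SD 0.17). B and plasma cell markers summed to 1594 and 482, with 1 of 2 measured genes passing on both arrays. That gene, Ighm, was at -1.97 ± 1.31 (SD of 3 probe sets), and Jchain (133.9 and 43.8) passed through the control array alone. Among the dim markers, Cd79a (7.3 and 7.8) and Cd79b (40.6 and 41.2) were not lower, while Ms4a1 had 47.5 and 29.2 for the brighter signals. Macrophage markers, 9 of 9 below 0 and 9 of 9 passing on both arrays, summed to 15795 and 14836. Of all measured genes 49.7% lay below 0. The macrophage median was -0.13, from Marco at -0.67 (pooled probe set SD 0.25) to C1qb at -0.0034 ± 0.04 (SD of 3 probe sets). Stellate cell markers summed to 3706 and 3542, endothelial markers to 2572 and 2569, and T and NK cell markers to 256 and 175. Of the 9 T and NK cell markers 8 were dim. The 1 measured, Ms4a4b (69.5 and 38.5), passed through the control array alone, which favours a ratio below 0. Cholangiocyte markers summed to 134.6 and 135.0, a balance of Epcam (63.1 and 32.9), the 1 measured marker, and dim Sox9 (16.1 and 40.7 for the brighter signals). Hepatocyte markers summed to 106155 and 107510, 5 of 7 above 0, against 50.2% of all measured genes. The sum hides Tat, the lowest of these markers, which read 4439.7 for control and 2725.3 for oleanolic acid. The log2 ratio of Tat was -0.70 (pooled probe set SD 0.13). The part of these markers in the values of the elongases and desaturases was not tested.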

How the data were processed

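Biotin-labelled cRNA of 2 pooled liver RNA samples was hybridized to Affymetrix 3' arrays, per the labels' protocols. The authors deposited 1 linear intensity per probe set and array. The submitters' processing notes name MAS5 and give no version. With 2% of values trimmed from each end, both arrays had a mean of 300.1, so they were not scaled again. Detection calls were not used here. Gene names came from the platform annotation: of 22690 probe sets, 64 were Affymetrix controls, 20380 carried 1 symbol, 691 several and 1555 none, and 20351 matched RefSeq (GRCm38.p6) by gene identifier. No genome build is given for the arrays in the sources used here.

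Values under an array's 25th percentile (10.7 and 10.1) were set to it before taking log2. The filter left 11642 probe sets and 7137 genes. In 4 bands of rising signal the pooled SD between probe sets was 0.27, 0.25, 0.17 and 0.13, from 2427 genes. The number of arrays limits precision, and with 1 per diet no test was possible. The members and lists were chosen with earlier results of these data known. Named were all members, up to 3 genes per list with the largest absolute log2 ratio, Srebf1, Srebf2, Nr1h3, Mlxipl, Ppara, Fasn and Thrsp, fat and hepatocyte markers, and the 3 bright genes nearest in ratio to Elovl3 and to Elovl6. Further list genes were named where a count or the filter called for it. Alternatives covered the floor, the filter, the probe set summary and the scaling. The calculation was checked on simulated data, with known changes and probe set noise put on the control signals (Python 3.11.15, pandas 2.3.3, statsmodels 0.14.6). Such data hold no variation between mice, and the check covers the arithmetic alone.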

Additional observations from a re-analysis of the deposited data

How the results depend on the processing

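Under 9 alternative settings (floor at the array median or none, all probe sets or only those bright on both arrays, the brightest probe set alone, no probe sets ending in _x_at, _s_at or _a_at, quantile normalization, intensity-dependent centring and median centring) the log2 ratio of Elovl3 ran from 1.85 to 1.87, that of Elovl6 from -1.01 to -0.95 and their distance from 2.82 to 2.87. The floor, filter and probe set settings could not move Elovl3, whose only probe set has no such suffix and is bright on both arrays. Its range thus comes from the scaling settings alone. For Elovl6, also bright on both arrays, the floor and filter settings could not move the ratio either. In each setting 1 member was above 0.5 and 1 below -0.5, and the member median lay between 0.03 and 0.09. Elovl5 ran from 0.29 to 0.35, Elovl2 from 0.12 to 0.16, Fads1 from -0.15 to -0.13, Fads2 from -0.38 to -0.29 and Scd2 from 0.03 to 0.20, while Scd1 changed sign, from -0.07 to 0.03. Elovl1 has no value without suffixed probe sets, since all 3 of its own carry such a suffix. Counting dim probe sets as well put Srebf2 at 0.00085, intensity-dependent centring put Dbi at 0.08, and the median of the female-biased genes was 0.15 without suffixed probe sets. No paired analysis was possible because each diet has 1 array. For the same reason no array could be left out, and these settings say nothing about variation between mice. Dim probe sets, such as those of Elovl4, Elovl7, Fads3, Scd3 and part of Scd2, gave no usable ratio.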

Other observations

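Genes that use long and unsaturated chains, in peroxisomal oxidation, ceramide synthesis and phospholipid remodelling, lay near 0. Of 13 measured genes, 13 were within 0.5 of 0, as were 94.1% of all measured genes. Of the 13, 9 lay above 0 and 4 below, with a median of 0.03, where all measured genes gave 50.2% above 0 and 49.7% below. Besides Abcd2, the largest values were those of the acyltransferase gene Agpat3 (0.19, pooled probe set SD 0.13) and of Dgat2, which completes triglyceride synthesis (-0.15 ± 0.02, SD of 2 probe sets). Cers2, the ceramide synthase for very long chains, which uses products of the Elovl1 type, was at 0.0084, on signals of 1833 and 1844. Lpcat3, which places polyunsaturated chains in phospholipids, was at -0.02, and Hsd17b4, a peroxisomal oxidation enzyme, at 0.03 ± 0.04 (SD of 2 probe sets). The last 3 genes were chosen after their values were seen.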
